A study of Drosophila melanogaster with 54 samples.

Results

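DNA replication and repair genes of Drosophila melanogaster were followed as a list of 43 genes, of which 41 were found in the tables under the listed name and 2 under a synonym (RfC40 and DNA-ligI). They comprised 11 genes of the replicative helicase, 8 of origin recognition and licensing, 6 polymerase and primase subunits, 5 of the sliding clamp and its loader, 4 of single-strand binding and fragment joining, 2 of nucleotide supply, 3 of mismatch repair, 2 of the RecQ and WRN family and 2 topoisomerases. Of the 43, 40 were listed in all 6 polysome gradients, among 5088 such genes, and 42 had a transcript among the 5842 of the footprint series. Sld5 and lat stood at 0 in every unfractionated input and in no gradient, although both had footprint values. Msh6 was missing from both untreated egg gradients, where every listed gene reached 4 in heavy polysomes, and Orc4 had no transcript in the footprint table.

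The libraries came from activated eggs and mature oocytes. The eggs were unfertilised, laid over 2 h by OregonR virgin females kept with twine (HB5) males that make no sperm. The oocytes were stage 14, picked by hand from collagenase-treated ovaries of 4-day-old OregonR females fattened on yeast. Lysates were run on sucrose gradients and collected in 6 parts, namely free RNP, the 40S subunit, the 60S subunit together with single ribosomes (80S), and light, middle and heavy polysomes in order of ribosomes bound, here called low, medium and heavy, with 2 gradients per stage and 1 more per stage from a lysate given 2 mM puromycin, which releases nascent chains and ribosomes. Puromycin lysates also had different buffers and lacked cycloheximide, and the drug cannot be told apart from these changes. A separate set of footprint and RNA libraries covered png eggs (png1058/png1058 mothers), eggs and oocytes, each as 1 library without and 1 with cycloheximide. Nothing in the labels says whether replicates came from separate flies, and the spread behind each p-value may be technical.

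Replication starts at origins, where the origin recognition complex and Cdt1 (double parked in Drosophila) load the MCM helicase, and geminin blocks that loading. Cdc45 and the GINS complex then complete the helicase, and polymerases, clamp, clamp loader, flap nuclease and ligase copy and join the strands. The early fly embryo runs very fast S phases in a shared cytoplasm on maternal mRNA and protein, before it makes its own transcripts. PAN GU, the kinase that png encodes, is needed for many of the translational changes at egg activation, and eggs of png mutant mothers are known for replicating DNA without mitosis until their nuclei are giant.

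The 8 oocyte and egg markers summed to 2271 and 2656 RPKM in egg inputs, against 2532 and 2433 RPKM in oocyte inputs, and 3 fat body and gut markers to at most 0.18 RPKM. The 18 follicle cell markers (chorion, vitelline membrane and yolk protein genes) summed to 0.5 and 0.848 RPKM in egg inputs, with 15 and 10 of them at 0, against 28730 and 23570 RPKM in oocyte inputs. The part of follicle cell mRNA in the results below was not tested. The library labelled as the puromycin egg input went against its label, with 28780 RPKM of follicle cell markers, while its gradient listed 1 of the 18 genes. It entered no comparison in the text, only 1 alternative setting. In png eggs the png RNA itself was present, at 92.1 and 96.9 RPKM, against 102 and 102 RPKM in eggs. Cp15, a chorion gene, had 22.6 and 40.5 RPKM of footprints in eggs, against 25200 and 71100 RPKM in oocytes.

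Most replication mRNAs were less polysomal in activated eggs than in oocytes. The polysomal share of a gene, meaning the percentage of its mRNA that lay in the medium plus heavy parts of the gradient, had a median over the 40 members of 19.6% and 18.9% in the egg gradients, against 43.7% and 43.4% in the oocyte gradients. Over all 5088 genes the medians were 26.8% and 27.6% in eggs, against 35.6% and 34.2% in oocytes, so the members stood above the typical gene in oocytes and below it in eggs. Tested as log2 odds with limma, 28 of 40 members fell and 5 rose in eggs relative to oocytes, where 51.0% of all genes fell and 18.2% rose. The median change was -1.58 over the members and -0.60 over all genes. With each gradient centred on its own median, which removes that common shift by construction, 26 members fell and 10 rose. Of all 5088 genes, 1883 fell and 1594 rose under that setting.

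**Figure D1:**
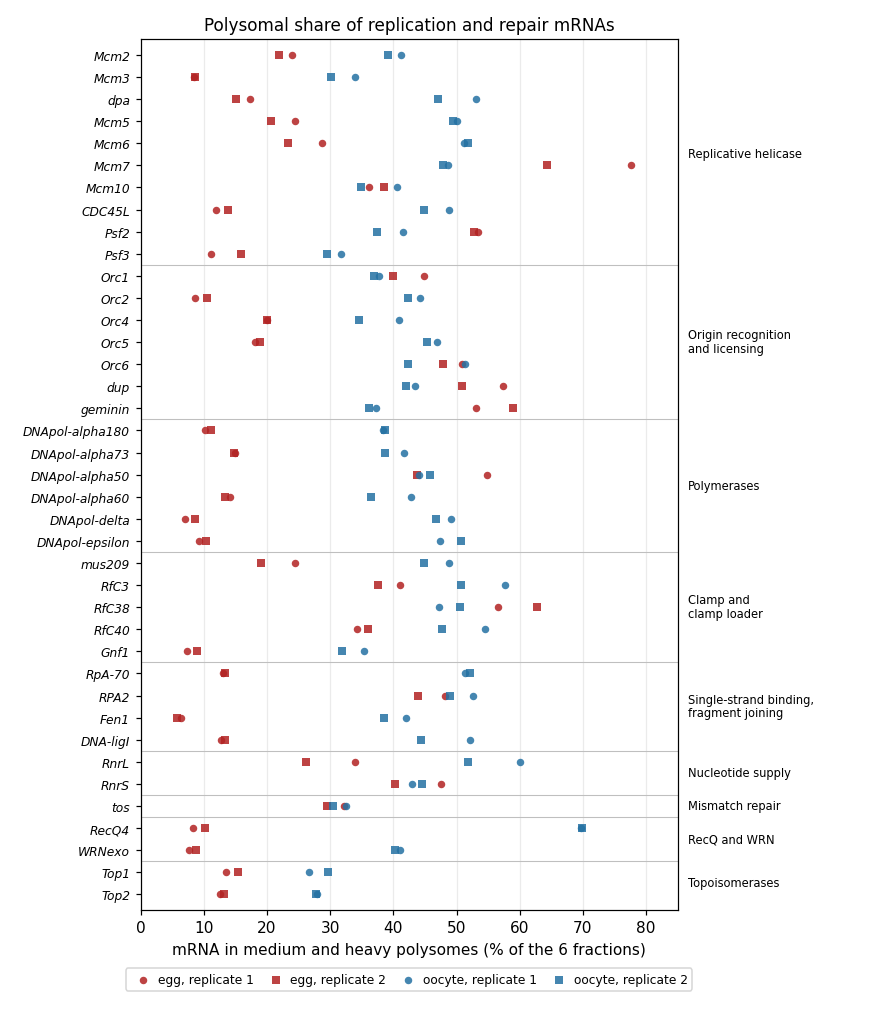
Percentage of each mRNA found in medium and heavy polysomes (x axis, 0 to 85%) for 39 of the 40 members listed in all 6 gradients, by role. Red marks are the 2 egg gradients and blue marks the 2 oocyte gradients. Most egg marks lie left of the oocyte marks, while those of Mcm7, geminin, dup, Psf2, RfC38 and Orc1 lie to the right.

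In oocytes the heavy polysomes were the fullest of the 6 fractions for 20 of the 40 members, against 17.5% of all genes, and 60S with 80S for 13, against 53.6% of all genes. In eggs the fullest fraction was 40S for 8 members, against 9.04% of all genes, and low polysomes for none, against 10.4% of all genes. It was free RNP for 11, against 24.9% of all genes, and 60S with 80S for 8, against 22.7%. It was medium polysomes for 6, against 14.2%, and heavy polysomes for 7, against 18.8%. Members that fell in polysomes thus differed in where they lay in eggs. By the mean of the 2 gradients, the fullest egg fraction was 40S for DNApol-delta, 60S with 80S for RecQ4 and free RNP for Fen1. The 40S fraction held a median of 20.3% and 24.4% of a member's mRNA in eggs, against 9.04% and 5.38% in oocytes, where over all genes it held 15.6% and 15.4% in eggs, against 10.3% and 5.59% in oocytes.

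**Figure D2:**
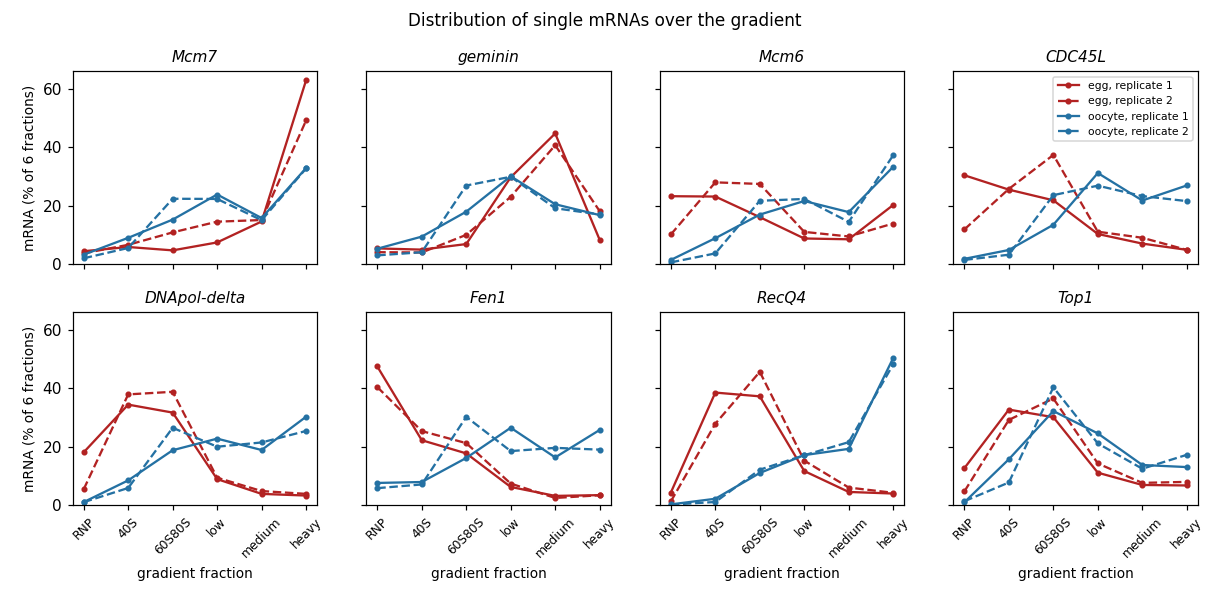
Share of a gene's mRNA in each of the 6 gradient fractions (y axis, % of the sum), from free RNP to heavy polysomes, for 8 members, with egg gradients in red and oocyte gradients in blue, and replicate 2 dashed. Mcm7 and geminin peak in polysomes in eggs, DNApol-delta and RecQ4 in 40S or 60S with 80S, and Fen1 in RNP.

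Within the replicative helicase, 7 of 10 members fell, 2 rose and 1 did not pass the test. Mcm7 went against the other MCM subunits: its polysomal share was 77.7% and 64.4% in eggs, against 48.7% and 47.8% in oocytes. Both egg gradients were above both oocyte gradients, and the log2 odds rose by 1.42 ± 0.33 (SE, adjusted p = 0.00896); Mcm7 was the only one of the 5 risen members called under every alternative setting run. Psf2, a GINS subunit, was 53.4% and 52.8% in eggs, against 41.5% and 37.3% in oocytes. Its egg values were the higher ones without overlap and rose by 0.80 ± 0.17 (SE, adjusted p = 0.00628), but its change was -0.32 in heavy polysomes taken alone and, at 0.55 (adjusted p = 0.0508), lost the call with low polysomes included. Mcm6, the member of median change in the group, was 28.7% and 23.4% in eggs, against 51.2% and 51.8% in oocytes. It fell without overlap by 1.59 ± 0.19 (SE, adjusted p = 0.000522), and Mcm2, Mcm3, dpa (the Mcm4 gene) and Mcm5 fell as well, by 1.18 to 2.36. CDC45L, the Cdc45 gene, was 11.9% and 13.9% in eggs, against 48.7% and 44.9% in oocytes. It was low in both egg gradients and fell by 2.57 ± 0.18 (SE, adjusted p = 0.000122), the largest fall among the helicase genes.

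Of 7 origin recognition and licensing genes, 2 rose, 3 fell and 2 did not pass the test, where 18.2% of all genes rose and 51.0% fell. Those that rose were a pair of opposed regulators. The mRNA of geminin, the licensing inhibitor, was 53.1% and 58.9% in eggs, against 37.3% and 36.1% in oocytes. The egg values exceeded both oocyte values and the log2 odds rose by 1.13 ± 0.19 (SE, adjusted p = 0.00214), which became -0.52 with heavy polysomes alone; its fullest egg fraction was medium polysomes. The mRNA of dup, the Cdt1 gene, was 57.3% and 50.9% in eggs, against 43.4% and 42.0% in oocytes. Again the groups did not overlap, and the rise was 0.66 ± 0.20 (SE, adjusted p = 0.0237). Orc2 moved the other way at 8.57% and 10.4% in eggs, against 44.3% and 42.3% in oocytes. It was low in both egg gradients and fell by 2.84 ± 0.18 (SE, adjusted p = 0.000115). Orc6, of median change in the group, was 50.9% and 47.9% in eggs, against 51.3% and 42.3% in oocytes. Both egg values lay inside the oocyte range, and the change of 0.15 ± 0.23 (SE, adjusted p = 0.575) did not pass. Orc1 at 44.8% and 39.9% in eggs, against 37.7% and 37.0% in oocytes was slightly higher in both egg gradients. Its change of 0.30 ± 0.18 (SE, adjusted p = 0.171) did not pass either. Orc6 and Orc1 were called higher when fractions were rescaled by their totals (0.52 and 0.60) and with gradients centred (0.66 and 0.81).

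Of the polymerase and primase subunits, 5 of 6 fell. DNApol-delta, the catalytic subunit of the lagging-strand polymerase, was 6.98% and 8.53% in eggs, against 49.1% and 46.8% in oocytes. Both egg values were far below both oocyte values, and it fell by 3.42 ± 0.18 (SE, adjusted p = 0.000115). DNApol-epsilon, the catalytic subunit of the leading-strand polymerase, was 9.24% and 10.3% in eggs, against 47.4% and 50.8% in oocytes. It was low in eggs without overlap and fell by 3.11 ± 0.17 (SE, adjusted p = 0.000115). DNApol-alpha180, the catalytic subunit that extends primers, was 10.2% and 11.1% in eggs, against 38.4% and 38.6% in oocytes. It fell by 2.36 ± 0.16 (SE, adjusted p = 0.000119). DNApol-alpha50, the catalytic primase subunit, was 54.9% and 43.7% in eggs, against 44.1% and 45.7% in oocytes. Its groups overlapped and its change of 0.25 ± 0.24 (SE, adjusted p = 0.387) did not pass. It was called higher when fractions were rescaled by their totals (1.04) and with gradients centred (0.76). DNApol-alpha60, the other primase subunit, fell by 2.02 ± 0.19 (SE, adjusted p = 0.000204).

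Among clamp and clamp loader genes, 4 of 5 fell and RfC38 rose. Gnf1, the large subunit of replication factor C, was 7.34% and 8.97% in eggs, against 35.4% and 31.8% in oocytes. It was low in both egg gradients and fell by 2.50 ± 0.19 (SE, adjusted p = 0.000127). RfC38, one of its small subunits, was 56.6% and 62.8% in eggs, against 47.3% and 50.5% in oocytes. Egg values were higher without overlap and rose by 0.63 ± 0.21 (SE, adjusted p = 0.0322), but the change was -0.66 in heavy polysomes alone and -0.13 with low polysomes included. RfC40, of median change in the group, was 34.2% and 35.9% in eggs, against 54.5% and 47.8% in oocytes. It fell without overlap by 0.95 ± 0.19 (SE, adjusted p = 0.00472), and the fall of mus209, the PCNA gene, was 1.67 ± 0.21 (SE, adjusted p = 0.000619). The calls for RfC38 and dup rested on few libraries: without oocyte replicate 1 their changes were 0.54 and 0.70 with adjusted p-values of 0.142 and 0.0686, without oocyte replicate 2 they were 0.72 and 0.62 (0.0623 and 0.0986), RfC38 lost its call without egg replicate 2 (0.45, adjusted p = 0.109) and dup without egg replicate 1 (0.47, adjusted p = 0.0942) or with low polysomes included (0.23, 0.436). Leaving out either oocyte gradient left 3 of the 5 risen members called.

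Single-strand binding and fragment-joining genes fell in 3 of 4 cases. Fen1, the nuclease that trims flaps of Okazaki fragments, was 6.44% and 5.69% in eggs, against 42.0% and 38.6% in oocytes. Its egg values were the lowest among the members, and it fell by 3.34 ± 0.18 (SE, adjusted p = 0.000115). RpA-70, the large subunit of the single-strand binding protein, was 13.0% and 13.3% in eggs, against 51.3% and 52.1% in oocytes. It was low in both egg gradients and fell by 2.81 ± 0.15 (SE, adjusted p = 0.000115). DNA-ligI, the ligase that seals the fragments, was 12.8% and 13.4% in eggs, against 52.1% and 44.4% in oocytes. It fell by 2.61 ± 0.20 (SE, adjusted p = 0.000126). RPA2, a smaller subunit of the same binding protein as RpA-70, changed by -0.27 ± 0.18 (SE, adjusted p = 0.231) and did not pass.

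The remaining groups were small. RecQ4, a helicase needed for replication to start, was 8.34% and 10.1% in eggs, against 69.7% and 69.8% in oocytes. It had the highest oocyte share of all 40 members, and it fell by 4.44 ± 0.18 (SE, adjusted p = 0.000115), more than any other. WRNexo, the fly relative of the Werner syndrome exonuclease, was 7.70% and 8.73% in eggs, against 41.1% and 40.3% in oocytes. It fell without overlap by 2.88 ± 0.17 (SE, adjusted p = 0.000115). Of the 2 mismatch repair genes in all gradients, 1 fell, where 51.0% of all genes fell. The other, the exonuclease gene tos, changed by -0.04 ± 0.16 (SE, adjusted p = 0.819) without passing. Of the ribonucleotide reductase subunits, which supply deoxynucleotides, RnrL was 33.9% and 26.2% in eggs, against 60.0% and 51.7% in oocytes. RnrL fell by 1.57 ± 0.26 (SE, adjusted p = 0.00186), while RnrS changed by 0.01 ± 0.20 (SE, adjusted p = 0.976). Topoisomerase mRNAs were among the least polysomal of the members in oocytes: Top1 was 13.5% and 15.5% in eggs, against 26.7% and 29.6% in oocytes. Top2 was 12.5% and 13.2% in eggs, against 28.0% and 27.8% in oocytes. Egg values were lower for both without overlap, and the falls were 1.21 ± 0.18 (SE, adjusted p = 0.00112) and 1.39 ± 0.16 (SE, adjusted p = 0.000397).

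More of nearly every member was found in free RNP in eggs, as for most genes. The RNP share rose for 37 of 40 members and fell for none, where 79.3% of all genes rose and 0.550% fell. Its median over the members was 21.8% and 11.9% in eggs, against 3.93% and 2.31% in oocytes, with egg replicate 1 the higher. The median log2 change was 2.87 over the members and 2.12 over all genes. With the gradients centred on their medians, 14 members rose and 2 fell, where 522 of all 5088 genes rose and 697 fell. Of the 37 members called higher in the main test, 6 changed sign under that setting. When every fraction was rescaled by its total 19 members rose, where 1155 genes rose and 89 fell. Without oocyte replicate 2 fewer members were called than in the main test. The small p-values of RNP shares below rest on limma's pooling of the spread over all genes, not on the 2 gradients per stage alone.

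Helicase genes were 10 of the 40 members tested and made up 4 of the 10 largest RNP rises. The RNP share of Mcm6 was 23.3% and 10.1% in eggs, against 1.40% and 0.551% in oocytes, a rise of 4.21 ± 0.76 (SE, adjusted p = 2.48e-07). That of CDC45L was 30.5% and 11.9% in eggs, against 1.77% and 1.40% in oocytes, a rise of 3.83 ± 0.72 (SE, adjusted p = 8.53e-07). For dpa it was 23.3% and 8.28% in eggs, against 1.47% and 0.961% in oocytes and for Mcm3 38.8% and 14.6% in eggs, against 3.87% and 2.07% in oocytes. In each of these the egg values stood above the oocyte values without overlap, with egg replicate 1 the highest, and the rises of dpa and Mcm3 were 3.59 ± 0.78 (SE, adjusted p = 1.81e-05) and 3.46 ± 0.59 (SE, adjusted p = 4.52e-08). Fen1 had 47.5% and 40.5% in eggs, against 7.54% and 5.75% in oocytes, the largest egg RNP share of all members, and rose by 3.44 ± 0.38 (SE, adjusted p = 9.26e-17). RpA-70 had 35.2% and 21.7% in eggs, against 3.95% and 2.44% in oocytes and DNA-ligI 38.7% and 21.5% in eggs, against 4.17% and 2.77% in oocytes. Both rose, by 3.55 ± 0.59 (SE, adjusted p = 2.07e-08) and 3.50 ± 0.55 (SE, adjusted p = 2.69e-09). The RNP share of RnrL was 25.4% and 15.1% in eggs, against 2.63% and 1.80% in oocytes, that of mus209 35.4% and 27.8% in eggs, against 5.62% and 3.09% in oocytes, and that of DNApol-alpha73, the second subunit of polymerase alpha, 38.9% and 21.8% in eggs, against 5.54% and 2.77% in oocytes. Their rises were 3.42 ± 0.68 (SE, adjusted p = 2.77e-06), 3.39 ± 0.46 (SE, adjusted p = 1.74e-11) and 3.32 ± 0.52 (SE, adjusted p = 4.72e-09), and all groups were separate.

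The members of median RNP change in their groups followed. Mcm2 had 25.7% and 10.5% in eggs, against 3.46% and 1.83% in oocytes (helicase), Orc6 16.7% and 12% in eggs, against 4.01% and 2.51% in oocytes (origin) and RfC3 22.2% and 21.0% in eggs, against 4.93% and 3.80% in oocytes (clamp loader). Their changes were 2.91 ± 0.70 (SE, adjusted p = 9.04e-05), 2.23 ± 0.59 (SE, adjusted p = 0.000357) and 2.57 ± 0.51 (SE, adjusted p = 2.43e-06). DNApol-alpha180 had 7.55% and 2.42% in eggs, against 0.392% and 0.676% in oocytes, RnrS 17.3% and 10.9% in eggs, against 3.31% and 1.64% in oocytes and tos 19.0% and 13.3% in eggs, against 3.91% and 2.18% in oocytes. These rose by 2.55 ± 0.72 (SE, adjusted p = 0.000859), 2.70 ± 0.67 (SE, adjusted p = 0.000163) and 2.52 ± 0.68 (SE, adjusted p = 0.000477). RecQ4 had 4.23% and 1.19% in eggs, against 0.176% and 0.0897% in oocytes and Top1 12.6% and 4.63% in eggs, against 0.904% and 1.26% in oocytes, with rises of 2.30 ± 0.66 (SE, adjusted p = 0.000938) and 2.65 ± 0.75 (SE, adjusted p = 0.000861). Without oocyte replicate 2 the calls of Mcm2 (2.46, adjusted p = 0.0542), Orc6 (1.91, 0.0575), DNApol-alpha180 (2.79, 0.0672), RnrS (2.21, 0.0603), tos (2.15, 0.0819), RecQ4 (2.24, 0.11) and Top1 (2.93, 0.0602) were lost, and those of DNApol-alpha180 (2.31, 0.123), RecQ4 (2.36, 0.0947) and Top1 (2.37, 0.117) also without oocyte replicate 1. All members named so far in this paragraph, RfC3 included, lost the call with rescaled fractions (1.00 to 1.86) and with gradients centred (0.18 to 0.86). With 5 added to each side, in place of 1, RecQ4 lost the call as well (1.04, adjusted p = 0.11). The 3 members that did not pass were Mcm7 at 0.70, geminin at 0.25 and DNApol-epsilon at 0.99, of which the first 2 were among those that rose in polysomes.

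The levels of poly(A)-selected mRNA in the inputs were not shown to differ between stages. Whether poly(A) tails differed between stages, and so entered these values, was not tested. None of 41 members with values in the unfractionated inputs was called higher or lower by limma, where 0.423% of all genes were higher and 3.05% lower. Unadjusted, 939 of 6622 genes had a p under 0.05. The median member change was -0.18 and that of all genes -0.09, with a range of -0.59 to 0.44 over the members. Among the members of median change in their groups, DNApol-delta had 58.0 and 49.3 RPKM in eggs, against 65.5 and 49.4 RPKM in oocytes. Mcm6 had 105 and 119 RPKM in eggs, against 125 and 122 RPKM in oocytes. RecQ4 had 27.9 and 39.3 RPKM in eggs, against 49.4 and 46.9 RPKM in oocytes. Egg and oocyte values of the first overlapped, those of Mcm6 and RecQ4 were lower in eggs without passing, and in such lysates fewer cells of a type and less RNA per cell cannot be told apart. Orc2 (54.3 and 60.0 RPKM in eggs, 77.8 and 60.5 RPKM in oocytes) and Gnf1 (101 and 96.7 RPKM in eggs, 125 and 93.2 RPKM in oocytes) changed by -0.26 and -0.12. DNA-ligI (73.8 and 73.5 RPKM in eggs, 93.7 and 96.4 RPKM in oocytes) and Top2 (154 and 167 RPKM in eggs, 191 and 124 RPKM in oocytes) changed by -0.37 and 0.05. RnrS (154 and 287 RPKM in eggs, 343 and 234 RPKM in oocytes) had its lowest value in egg replicate 1 and changed by -0.43. Without egg replicate 2, 11 members were called lower, RnrS (-0.87) and RecQ4 (-0.77) among them.

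Footprints, from other libraries, gave a second view of the same step. Translational efficiency was the log2 ratio of footprints to RNA, with 1 RPKM added to each, and each value pair below is the library without cycloheximide, then the one with it. No genotype or stage was repeated within a cycloheximide state, so biological variation was not measured. The member median was -0.38 and -0.54 in eggs, against 0.70 and 0.18 in oocytes, where that of all transcripts was 0.03 and 0.09 in eggs, against -0.39 and -0.89 in oocytes. By limma 24 of 42 members fell and 9 rose, where 24.7% of all transcripts fell and 46.0% rose. The median change was -0.79 over the members and 0.50 over all transcripts. After quantile normalization within an assay, 2160 of all 5840 transcripts rose and 2229 fell, with a median change of -0.03. The shares over all transcripts thus depended on the scaling. Without the egg libraries with cycloheximide, 5 members rose and 21 fell.

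**Figure D3:**
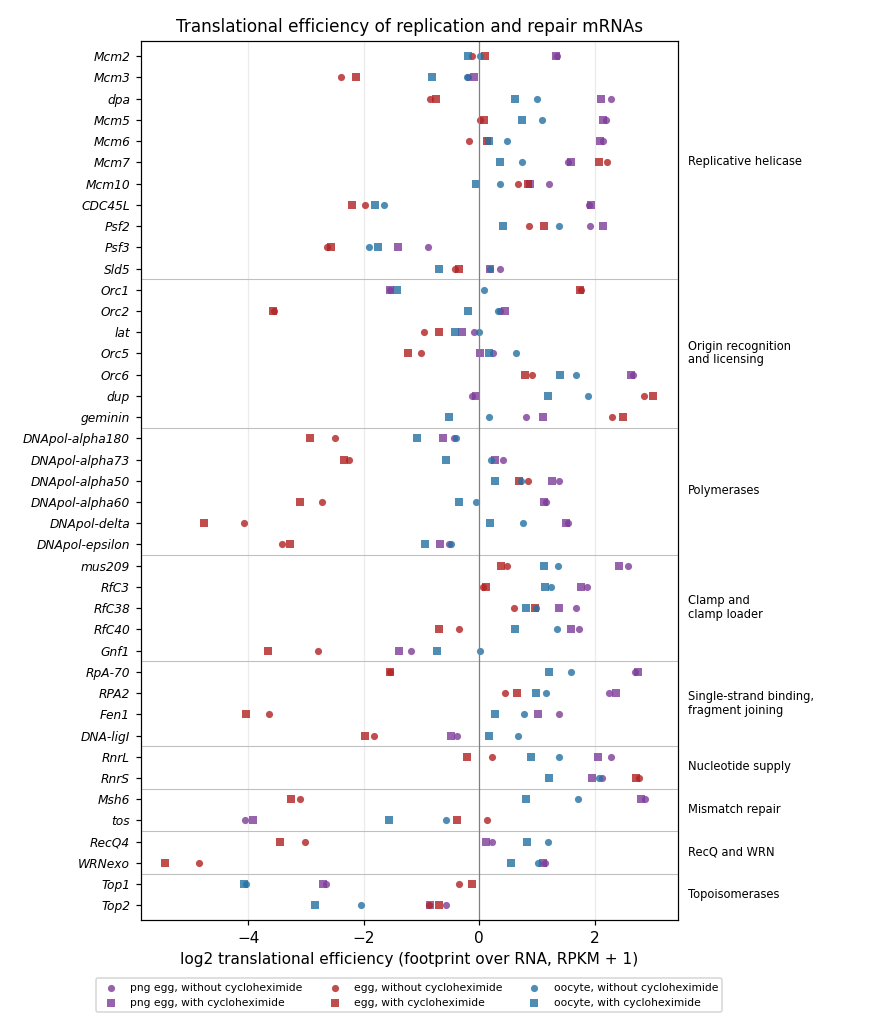
Log2 translational efficiency (x axis) of 41 of the 42 members with a transcript, by role, in png eggs (purple), eggs (red) and oocytes (blue), with circles for libraries without and squares for libraries with cycloheximide. WRNexo, DNApol-delta, Msh6 and Fen1 have egg marks far left of both other sample types, while tos, Orc1 and dup have their png egg marks left of their egg marks.

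The 5 largest falls were those of WRNexo, DNApol-delta, Msh6, Fen1 and RecQ4. WRNexo had -4.85 and -5.44 in eggs, against 1.01 and 0.55 in oocytes, a separate low pair that fell by 5.92 ± 0.25 (SE, adjusted p = 1.17e-06). Its footprints were 2.70 and 1.3 RPKM in eggs, against 196 and 135 RPKM in oocytes, at RNA levels of 105 and 98.7 RPKM in eggs and 96.7 and 91.9 RPKM in oocytes. DNApol-delta had -4.08 and -4.77 in eggs, against 0.77 and 0.19 in oocytes, with footprints of 2.86 and 1.13 RPKM in eggs, against 104 and 64.8 RPKM in oocytes. Both egg libraries were far below both oocyte libraries, and the fall was 4.90 ± 0.28 (SE, adjusted p = 1.78e-06). Msh6, the mismatch repair gene that no untreated egg gradient listed, had -3.10 and -3.25 in eggs, against 1.70 and 0.81 in oocytes and fell by 4.44 ± 0.29 (SE, adjusted p = 2.49e-06). Fen1 had -3.65 and -4.05 in eggs, against 0.78 and 0.28 in oocytes and RecQ4 -3.02 and -3.44 in eggs, against 1.20 and 0.84 in oocytes. Their egg pairs lay below their oocyte pairs, and they fell by 4.37 ± 0.19 (SE, adjusted p = 1.17e-06) and 4.25 ± 0.23 (SE, adjusted p = 1.66e-06).

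Orc2 had -3.56 and -3.58 in eggs, against 0.32 and -0.20 in oocytes, RpA-70 -1.54 and -1.54 in eggs, against 1.59 and 1.20 in oocytes and Gnf1 -2.78 and -3.66 in eggs, against 0.01 and -0.72 in oocytes. All egg values were below all oocyte values. Orc2 fell by 3.63 ± 0.24 (SE, adjusted p = 2.64e-06), RpA-70 fell by 2.94 ± 0.19 (SE, adjusted p = 2.55e-06) and Gnf1 fell by 2.87 ± 0.26 (SE, adjusted p = 1.36e-05). DNApol-alpha60 had -2.72 and -3.10 in eggs, against -0.06 and -0.35 in oocytes and DNApol-epsilon -3.42 and -3.27 in eggs, against -0.49 and -0.93 in oocytes. They fell by 2.70 ± 0.22 (SE, adjusted p = 7.48e-06) and 2.63 ± 0.23 (SE, adjusted p = 9.76e-06). RfC3 had 0.06 and 0.11 in eggs, against 1.25 and 1.15 in oocytes and RnrL 0.22 and -0.20 in eggs, against 1.38 and 0.90 in oocytes, of median change in their groups. They fell by 1.11 ± 0.18 (SE, adjusted p = 0.000412) and 1.13 ± 0.19 (SE, adjusted p = 0.000595), again with no overlap. In the helicase 4 of 11 members fell and 2 rose, where 24.7% of all transcripts fell and 46.0% rose. Mcm6 had -0.19 and 0.13 in eggs, against 0.48 and 0.17 in oocytes and a change of -0.35 ± 0.22 (SE, adjusted p = 0.177). CDC45L had -1.98 and -2.21 in eggs, against -1.64 and -1.80 in oocytes and a change of -0.37 ± 0.20 (SE, adjusted p = 0.122). Neither passed, and nor did lat, the Orc3 gene, at -0.96 and -0.69 in eggs, against 0.00 and -0.42 in oocytes with -0.61 ± 0.25 (SE, adjusted p = 0.0532). Without the oocyte libraries with cycloheximide, Mcm6 (-0.58, adjusted p = 0.0174) and lat (-0.84, 0.00808) were called, and after quantile normalization these 2 and CDC45L were called lower, at -0.96 to -1.36.

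Both topoisomerases rose, and of 7 origin recognition and licensing genes 3 rose and 3 fell, where 46.0% of all transcripts rose and 24.7% fell. Top1 had -0.36 and -0.12 in eggs, against -4.03 and -4.08 in oocytes, from footprints of 216 and 242 RPKM in eggs, against 9.15 and 10.2 RPKM in oocytes. Both egg values were above both oocyte values, and the rise of 3.81 ± 0.20 (SE, adjusted p = 1.54e-06) was the largest of the members. Top2 had -0.87 and -0.69 in eggs, against -2.04 and -2.84 in oocytes and rose by 1.66 ± 0.26 (SE, adjusted p = 0.000381). Geminin had 2.30 and 2.49 in eggs, against 0.17 and -0.52 in oocytes, Orc1 1.77 and 1.75 in eggs, against 0.09 and -1.43 in oocytes and Mcm7 2.21 and 2.08 in eggs, against 0.74 and 0.35 in oocytes. Each had both egg values above both oocyte values, with rises of 2.57 ± 0.32 (SE, adjusted p = 7.98e-05), 2.43 ± 0.44 (SE, adjusted p = 0.000849) and 1.60 ± 0.22 (SE, adjusted p = 0.000158). For dup the values were 2.85 and 3.01 in eggs, against 1.89 and 1.19 in oocytes, and for RnrS 2.77 and 2.71 in eggs, against 2.08 and 1.21 in oocytes. They rose by 1.39 ± 0.29 (SE, adjusted p = 0.00192) and 1.10 ± 0.27 (SE, adjusted p = 0.00524). Tos had 0.13 and -0.39 in eggs, against -0.58 and -1.56 in oocytes and Mcm10, which helps to start the helicase, 0.66 and 0.85 in eggs, against 0.36 and -0.05 in oocytes. Their rises were the smallest, 0.95 ± 0.32 (SE, adjusted p = 0.025) and 0.60 ± 0.23 (SE, adjusted p = 0.044), and after quantile normalization they were at 0.22 and -0.04, neither of them called. Without the egg libraries with cycloheximide, tos (0.99, adjusted p = 0.162), RnrS (0.87, 0.129), dup (1.15, 0.0754) and Mcm10 (0.32, 0.38) lost the call, tos (0.90, 0.191) also without the other egg libraries and, as did Mcm10 (0.55 and 0.43), without the oocyte libraries with cycloheximide, and Mcm10 (0.60, adjusted p = 0.11) without either pair of png egg libraries.

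The gradient and footprint changes came from different libraries and could be set side by side for 39 members. Of these, 21 fell in both, 3 rose in both (Mcm7, geminin and dup) and none rose in polysomes while falling in efficiency. Of all 4818 genes with both values, 21.6% fell in both, 16.1% rose in both and 0.0208% rose in polysomes while falling in efficiency. Top1 and Top2 were the 2 members that fell in polysomes and rose in efficiency, a pairing that 14.0% of all genes had. Orc1, RnrS, tos and Mcm10 rose in efficiency without passing in polysomes, as did 17.2% of all genes. Spearman's rho between the changes was 0.86 over the 39 members and 0.64 over the 4818 genes, a description across genes that share the libraries of each assay.

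**Figure D4:**
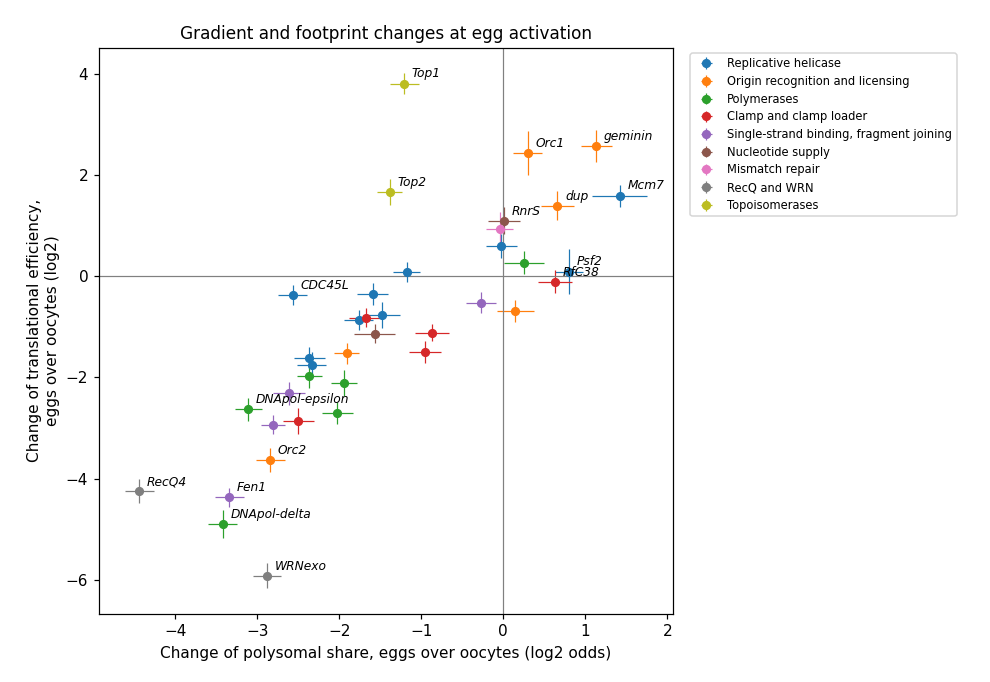
Change of translational efficiency (y axis, log2) against change of polysomal share (x axis, log2 odds), eggs over oocytes, for 38 of the 39 members, coloured by role; bars are standard errors. Most members lie at the lower left, Mcm7, geminin and dup in the upper right, and Top1 and Top2 in the upper left.

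Most replication mRNAs had a higher efficiency in png eggs than in eggs. This comparison shares its egg libraries with the one before, so the values stand side by side without a test of their relation. The member median was 1.27 and 1.11 in png eggs, against -0.38 and -0.54 in eggs, where that of all transcripts was -0.36 and -0.35 in png eggs, against 0.03 and 0.09 in eggs. In png eggs 31 of 42 members rose and 7 fell, where 32.1% of all transcripts rose and 38.0% fell. The median change was 1.77 over the members and -0.11 over all transcripts. After quantile normalization within an assay, 2386 of all 5840 transcripts rose and 2050 fell, with a median change of 0.14. All 6 polymerase subunits, all 5 clamp and clamp loader genes, all 4 single-strand binding and fragment-joining genes and both RecQ and WRN genes rose.

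WRNexo had 1.14 and 1.11 in png eggs, against -4.85 and -5.44 in eggs, Msh6 2.87 and 2.80 in png eggs, against -3.10 and -3.25 in eggs and DNApol-delta 1.53 and 1.5 in png eggs, against -4.08 and -4.77 in eggs. In each the png egg values were positive and the egg values far below zero, and the rises were 6.27 ± 0.25 (SE, adjusted p = 2.33e-07), 6.01 ± 0.29 (SE, adjusted p = 4.17e-07) and 5.94 ± 0.28 (SE, adjusted p = 3.95e-07). DNApol-delta footprints were 165 and 158 RPKM in png eggs, against 2.86 and 1.13 RPKM in eggs, at RNA levels of 56.2 and 55.2 RPKM in png eggs and 64.3 and 57.1 RPKM in eggs. Fen1 had 1.37 and 1.01 in png eggs, against -3.65 and -4.05 in eggs, RpA-70 2.69 and 2.76 in png eggs, against -1.54 and -1.54 in eggs and DNApol-alpha60 1.16 and 1.12 in png eggs, against -2.72 and -3.10 in eggs. They rose by 5.04 ± 0.19 (SE, adjusted p = 2.33e-07), 4.26 ± 0.19 (SE, adjusted p = 3.73e-07) and 4.05 ± 0.22 (SE, adjusted p = 7.08e-07). CDC45L had 1.91 and 1.94 in png eggs, against -1.98 and -2.21 in eggs and Orc2 0.36 and 0.44 in png eggs, against -3.56 and -3.58 in eggs. Both rose, by 4.02 ± 0.20 (SE, adjusted p = 4.65e-07) and 3.98 ± 0.24 (SE, adjusted p = 1.17e-06). The CDC45L pair of oocytes was -1.64 and -1.80, below zero as in eggs. RecQ4 had 0.22 and 0.12 in png eggs, against -3.02 and -3.44 in eggs and dpa 2.29 and 2.11 in png eggs, against -0.85 and -0.75 in eggs, with rises of 3.40 ± 0.23 (SE, adjusted p = 2.11e-06) and 3.0 ± 0.21 (SE, adjusted p = 2.42e-06).

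Members of median change in their groups rose as well. DNApol-alpha73 had 0.42 and 0.28 in png eggs, against -2.26 and -2.35 in eggs, Gnf1 -1.19 and -1.39 in png eggs, against -2.78 and -3.66 in eggs and RPA2 2.24 and 2.36 in png eggs, against 0.44 and 0.65 in eggs. Their rises were 2.65 ± 0.26 (SE, adjusted p = 1.9e-05), 1.93 ± 0.26 (SE, adjusted p = 0.000135) and 1.76 ± 0.21 (SE, adjusted p = 5.58e-05). PCNA mRNA, mus209, had 2.57 and 2.43 in png eggs, against 0.48 and 0.38 in eggs and a rise of 2.07 ± 0.19 (SE, adjusted p = 1.01e-05). Psf3 had -0.88 and -1.40 in png eggs, against -2.64 and -2.56 in eggs and lat -0.09 and -0.30 in png eggs, against -0.96 and -0.69 in eggs. They rose by 1.46 ± 0.26 (SE, adjusted p = 0.000771) and 0.63 ± 0.25 (SE, adjusted p = 0.0488). The call of lat was lost without either egg pair or either png egg pair of libraries (0.34 to 0.92).

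The 7 members that fell in png eggs included the licensing genes Orc1, dup and geminin. Tos had -4.06 and -3.92 in png eggs, against 0.13 and -0.39 in eggs, Orc1 -1.55 and -1.55 in png eggs, against 1.77 and 1.75 in eggs and dup -0.13 and -0.06 in png eggs, against 2.85 and 3.01 in eggs. Both png egg values were below both egg values in each, with falls of 3.87 ± 0.32 (SE, adjusted p = 6.31e-06), 3.31 ± 0.44 (SE, adjusted p = 0.000116) and 3.03 ± 0.29 (SE, adjusted p = 1.37e-05). Footprints of dup were 130 and 138 RPKM in png eggs, against 774 and 782 RPKM in eggs. Top1 had -2.66 and -2.71 in png eggs, against -0.36 and -0.12 in eggs and geminin 0.80 and 1.11 in png eggs, against 2.30 and 2.49 in eggs. They fell by 2.44 ± 0.20 (SE, adjusted p = 5.85e-06) and 1.44 ± 0.32 (SE, adjusted p = 0.00272), and the geminin values of png eggs stayed above the 0.17 and -0.52 of oocytes. RnrS had 2.12 and 1.95 in png eggs, against 2.77 and 2.71 in eggs and Mcm7 1.54 and 1.60 in png eggs, against 2.21 and 2.08 in eggs. Their falls were small, 0.71 ± 0.27 (SE, adjusted p = 0.0409) and 0.58 ± 0.22 (SE, adjusted p = 0.039), and both lost the call without any 1 of the egg or png egg library pairs (-0.47 to -0.94 and -0.42 to -0.74), as geminin did without eggs with cycloheximide (-1.25, adjusted p = 0.0734) or png eggs without it (-1.16, 0.0569); without either of these pairs 4 members fell. Top2, in contrast to Top1, had -0.58 and -0.86 in png eggs, against -0.87 and -0.69 in eggs, with overlapping values and a change of 0.06 ± 0.26 (SE, adjusted p = 0.847). The difference between the topoisomerases was not tested.

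RNA of the members differed less between the genotypes. By limma 3 of 42 members fell and none rose, where 1.83% of all transcripts fell and 4.32% rose. After quantile normalization 8 members fell and 3 rose, where 366 of all 5840 transcripts fell and 431 rose. RNA of CDC45L was 68.1 and 70.9 RPKM in png eggs, against 107 and 105 RPKM in eggs, a fall of 0.60 ± 0.14 (SE, adjusted p = 0.0414). RNA of mus209 was 268 and 278 RPKM in png eggs, against 392 and 412 RPKM in eggs, a fall of 0.56 ± 0.13 (SE, adjusted p = 0.0422). RNA of RpA-70 was 130 and 126 RPKM in png eggs, against 193 and 181 RPKM in eggs, a fall of 0.55 ± 0.14 (SE, adjusted p = 0.05), just inside the threshold. The groups were separate in these 3, and the calls were lost without any 1 of the egg or png egg libraries (-0.50 to -0.64, adjusted p 0.315 to 0.588), while without either oocyte library 9 or 10 members fell and 6 rose. Members of median change in their groups, geminin, RecQ4, Gnf1, RnrL, DNApol-alpha180, Psf3, RPA2 and Top1, changed by -0.29 to 0.14 with none called.

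The puromycin gradients were then compared with the untreated ones of the same stage. Their buffers differed and they lacked cycloheximide, so the part of the drug in these changes cannot be told apart. In oocytes the members' median polysomal share was 21.8% with puromycin, against 43.7% and 43.4% untreated. By limma 36 of 40 members fell and none rose, where 49.5% of all genes fell and 0.550% rose. The median change was -1.60 over the members and -0.70 over all genes. With each gradient centred 23 members fell and 2 rose, where 1028 of all 5088 genes fell and 716 rose. When every fraction was rescaled by its total 13 members fell and 3 rose, where 723 genes fell and 1817 rose. The lone puromycin gradient of each stage was assumed to vary as the untreated ones did.

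RecQ4 mRNA had the largest fall, with a share of 23.4% with puromycin, against 69.7% and 69.8% untreated. The puromycin value was far below both others, and it fell by 2.90 ± 0.21 (SE, adjusted p = 0.000991). RPA2 had 14.4% with puromycin, against 52.5% and 48.9% untreated and Orc4 9.72% with puromycin, against 40.9% and 34.5% untreated. They fell by 2.61 ± 0.23 (SE, adjusted p = 0.000997) and 2.48 ± 0.23 (SE, adjusted p = 0.00109). RnrL had 19.0% with puromycin, against 60.0% and 51.7% untreated, RfC40 17.3% with puromycin, against 54.5% and 47.8% untreated and DNApol-alpha50 14.6% with puromycin, against 44.1% and 45.7% untreated. All were lower with puromycin, by 2.43 ± 0.31 (SE, adjusted p = 0.00188), 2.32 ± 0.24 (SE, adjusted p = 0.00127) and 2.23 ± 0.30 (SE, adjusted p = 0.00201). RfC3 had 20.6% with puromycin, against 57.7% and 50.8% untreated, dpa 18.5% with puromycin, against 53.1% and 47.0% untreated and RfC38 17.8% with puromycin, against 47.3% and 50.5% untreated. Their falls were 2.18, 2.14 and 2.14. Psf2 had 13.5% with puromycin, against 41.5% and 37.3% untreated and fell by 2.04.

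Mcm2 had 16.7% with puromycin, against 41.3% and 39.2% untreated and DNA-ligI 20.0% with puromycin, against 52.1% and 44.4% untreated. Both fell, by 1.74 ± 0.20 (SE, adjusted p = 0.00146) and 1.89 ± 0.24 (SE, adjusted p = 0.00188). DNApol-delta had 27.7% with puromycin, against 49.1% and 46.8% untreated, DNApol-epsilon 29.7% with puromycin, against 47.4% and 50.8% untreated and dup 22.2% with puromycin, against 43.4% and 42.0% untreated. These fell by 1.26, 1.18 and 1.38, except that when every fraction was rescaled by its total DNApol-delta and dup were at 0.14 and 0.09, and with low polysomes included DNApol-epsilon was at 0.13. The topoisomerases were among the 4 members not called, where 2542 of all 5088 genes were not called. Top1 had 31.6% with puromycin, against 26.7% and 29.6% untreated and Top2 29.9% with puromycin, against 28.0% and 27.8% untreated. Neither was lower with puromycin, with changes of 0.24 ± 0.21 (SE, adjusted p = 0.401) and 0.14 ± 0.19 (SE, adjusted p = 0.578) that did not pass. Top1 and Top2 were called higher when every fraction was rescaled by its total (1.70 and 1.44). They were also called higher with gradients centred (0.94 and 0.84) and with low polysomes included (1.06 and 1.13). The other 2 members not called were tos and Psf3.

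**Figure D5:**
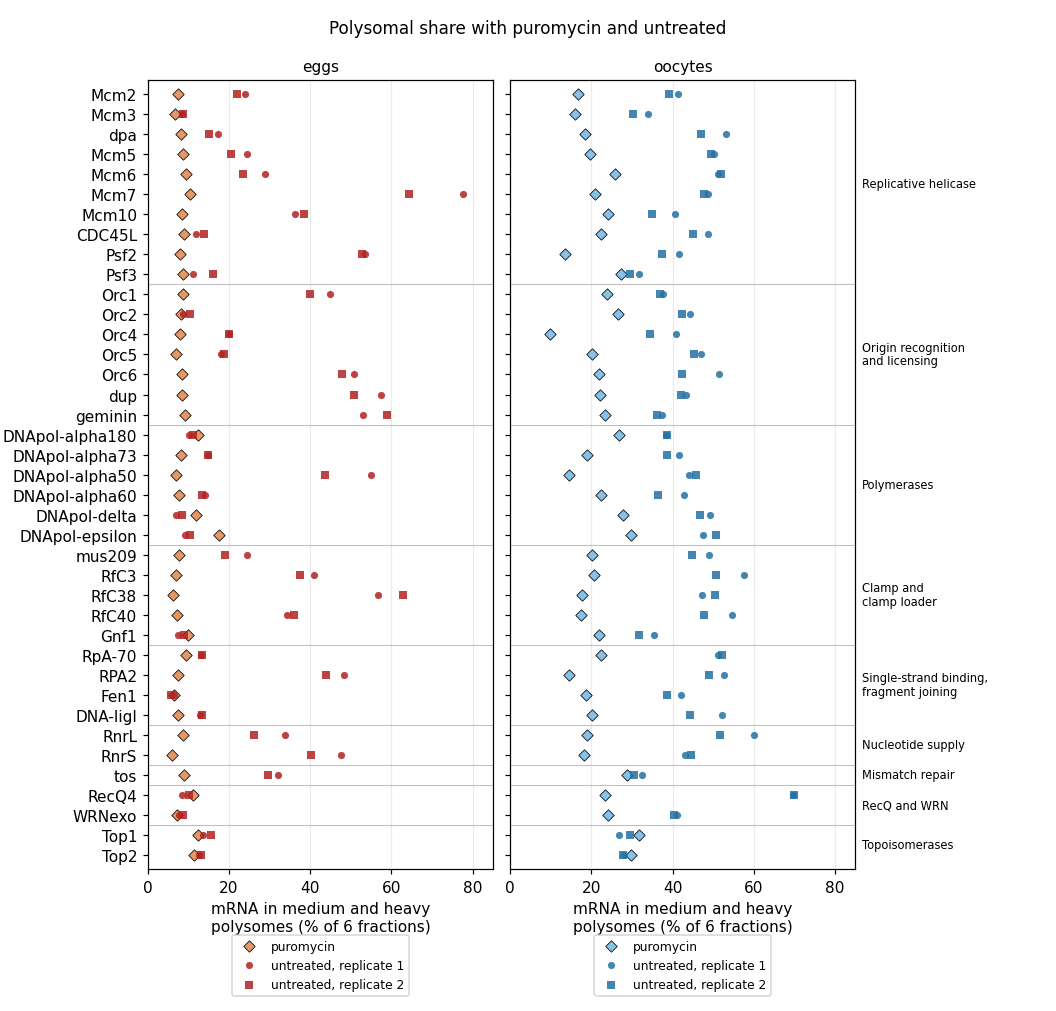
Percentage of each mRNA in medium and heavy polysomes (x axis) for 39 of the 40 members, in eggs (left) and oocytes (right), with diamonds for the puromycin gradient and filled marks for the 2 untreated gradients. With puromycin all members lie at 5.85% to 17.5% in eggs and 9.72% to 31.6% in oocytes, and only the topoisomerases of oocytes have their puromycin mark right of both untreated marks among the oocyte values.

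In eggs the members' median polysomal share was 8.33% with puromycin, against 19.6% and 18.9% untreated, and that of all genes 9.03% with puromycin, against 26.8% and 27.6% untreated. By limma 28 of 40 members fell and 2 rose, where 80.1% of all genes fell and 1.00% rose. The median change was -1.57 over the members and -1.83 over all genes. With each gradient centred 13 members fell and 19 rose, where 1539 of all 5088 genes fell and 1755 rose. When every fraction was rescaled by its total 13 members fell and 18 rose, where 1597 genes fell and 1597 rose. The direction of many members thus depended on the scaling, as it did over all genes.

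The 10 largest falls, and those of Orc1 and RfC40, were called under every alternative setting run. RfC38 had 6.10% with puromycin, against 56.6% and 62.8% untreated and Mcm7 10.4% with puromycin, against 77.7% and 64.4% untreated. They fell by 4.49 ± 0.25 (SE, adjusted p = 3.74e-05) and 4.43 ± 0.41 (SE, adjusted p = 9.75e-05). Psf2 had 7.83% with puromycin, against 53.4% and 52.8% untreated, geminin 9.08% with puromycin, against 53.1% and 58.9% untreated and dup 8.45% with puromycin, against 57.3% and 50.9% untreated. The puromycin value was far below both untreated ones in each, and they fell by 3.70 ± 0.21 (SE, adjusted p = 3.74e-05), 3.67 ± 0.23 (SE, adjusted p = 3.9e-05) and 3.67 ± 0.24 (SE, adjusted p = 4.07e-05). RnrS had 5.85% with puromycin, against 47.5% and 40.2% untreated, DNApol-alpha50 7.02% with puromycin, against 54.9% and 43.7% untreated and Orc6 8.29% with puromycin, against 50.9% and 47.9% untreated. Their falls were 3.65, 3.64 and 3.40. RPA2 had 7.50% with puromycin, against 48.2% and 44.0% untreated and RfC3 7.05% with puromycin, against 41% and 37.6% untreated. They fell by 3.39 and 3.06, as did Orc1 (8.57% with puromycin, against 44.8% and 39.9% untreated) by 2.96 and RfC40 (7.25% with puromycin, against 34.2% and 35.9% untreated) by 2.78.

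A pair of polymerase genes moved the other way. DNApol-epsilon had 17.5% with puromycin, against 9.24% and 10.3% untreated and DNApol-delta 11.8% with puromycin, against 6.98% and 8.53% untreated. In each the puromycin value was above both untreated ones, and the log2 odds rose by 0.96 ± 0.20 (SE, adjusted p = 0.00443) and 0.67 ± 0.22 (SE, adjusted p = 0.0274), though neither passed in heavy polysomes taken alone (0.33 for DNApol-epsilon and 0.13 for DNApol-delta). The call of DNApol-delta was lost without egg replicate 1 (0.51, adjusted p = 0.0567), oocyte replicate 1 (0.67, 0.0738) or oocyte replicate 2 (0.67, 0.0714), which leaves 1 member called higher. Top1 had 12.3% with puromycin, against 13.5% and 15.5% untreated, Top2 11.3% with puromycin, against 12.5% and 13.2% untreated and WRNexo 7.09% with puromycin, against 7.70% and 8.73% untreated. None passed, at -0.28, -0.21 and -0.26, and with the gradients centred they were at 1.62, 1.69 and 1.64. With low polysomes included Top1 (1.45, adjusted p = 0.000129) and Top2 (1.20, adjusted p = 0.00154) were called higher, and with heavy polysomes alone Top1 (-1.24, adjusted p = 0.0149) and Top2 (-1.22, adjusted p = 0.0118) were called lower. Tos (8.84% with puromycin, against 32.1% and 29.5% untreated) fell by 2.19. Mcm6 (9.46% with puromycin, against 28.7% and 23.4% untreated), DNApol-alpha60 (7.70% with puromycin, against 14.1% and 13.3% untreated) and DNA-ligI (7.41% with puromycin, against 12.8% and 13.4% untreated) fell by 1.74, 0.92 and 0.90, but stood at 0.16, 0.98 and 1.00 with the gradients centred.

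Of 80 further replication and repair genes, listed from general knowledge of the pathways, 59 were in all 6 gradients. In polysomes 43 of them fell and 5 rose in eggs relative to oocytes, with a median change of -1.17, where 51.0% of all genes fell and 18.2% rose. Of 72 with a transcript, 28 fell and 17 rose in efficiency in eggs relative to oocytes, where 24.7% of all transcripts fell and 46.0% rose. In png eggs relative to eggs 38 rose and 14 fell, where 32.1% of all transcripts rose and 38.0% fell. Checkpoint and break repair genes were found both among the largest rises and among the largest falls in polysomes. The share of lok, the Chk2 kinase, was 57.4% and 50.7% in eggs, against 26.4% and 25.5% in oocytes. That of XRCC1, a scaffold of single-strand break repair, was 65.2% and 62.6% in eggs, against 38.1% and 37.3% in oocytes. Egg values were above oocyte values in both, which rose by 1.75 ± 0.19 (SE, adjusted p = 0.000341) and 1.53 ± 0.18 (SE, adjusted p = 0.000454), as did dnk, a deoxynucleoside kinase, with 64.9% and 62.7% in eggs, against 42.7% and 42.8% in oocytes, by 1.24 ± 0.18 (SE, adjusted p = 0.00122). Rev1, a translesion polymerase, had 7.54% and 7.73% in eggs, against 47.7% and 48.0% in oocytes, and Xpac, of nucleotide excision repair, 7.98% and 6.55% in eggs, against 44.8% and 43.2% in oocytes. They fell by 3.34 ± 0.15 (SE, adjusted p = 0.000115) and 3.25 ± 0.18 (SE, adjusted p = 0.000115). Rad50, of the break-sensing complex, had 8.30% and 9.16% in eggs, against 43.4% and 39.9% in oocytes, and Claspin, a checkpoint mediator, 16.3% and 19.3% in eggs, against 63.2% and 53.9% in oocytes. Their falls were 2.85 ± 0.17 (SE, adjusted p = 0.000115) and 2.69 ± 0.24 (SE, adjusted p = 0.00018).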

How the data were processed

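Input and gradient tables held RPKM values, those of the gradients being normalized, per the file headers. The gradient tables also held the deposited fraction of each gene's mRNA, which equalled the RPKM over the gene's sum of 6 parts within 0.0052. Footprint and RNA RPKM of transcripts were also deposited. TopHat 1.3.2, Bowtie, HTSeq, FastQC and dm3 stand in the submitters' processing notes, with no roles. The design text names a yeast spike of 5 ng per gradient part; how it entered the values is not given here. Read depth is unknown, but steps in low input values put egg replicate 2 at 6.02 times the depth of oocyte replicate 2.

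Tests used limma 3.58.1 in R 4.3.3 (lmFit, eBayes with trend, two-sided, Benjamini-Hochberg over all features, threshold 0.05): log2 odds of shares with 1 added to each side, in 1 model over 6 gradients; log2(RPKM + 1) for inputs with a mean of at least 1 RPKM; and an interaction model over 12 footprint-series libraries with a cycloheximide term per assay, whose fold changes understate low genes. The approach was tested on simulated data. Tables and plots used python 3.11.15, pandas 2.3.3, numpy 2.4.6 and matplotlib 3.10.9. Gene names were matched to RefSeq records.

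Members and lists were chosen with earlier results of these data known. Named members are the 10 largest called changes in each direction and the member of median change of each group; others named were chosen after their values were seen. Sequences are not used here, and 2 genes that this rule names, counted in the totals, are not reported here singly.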

Additional observations from a re-analysis of the deposited data

Results flagged for a closer look

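The change of polysomal share with puromycin was tested as an interaction with limma over all 5088 genes. It differed between eggs and oocytes for 24 of 40 members, 13 higher and 11 lower in eggs. Over all genes 297 were higher and 2538 lower, and the median difference was 0.11 over the members and -0.99 over all genes. The difference takes in the untreated gradients of both stages, so it is not independent of the stage comparison above. With puromycin the members lay at 5.85% to 17.5% in eggs, and how far this limited their falls was not tested. For DNApol-delta the difference, eggs minus oocytes, was 1.93 ± 0.31 (SE, adjusted p = 0.00311), from 11.8% with puromycin, against 6.98% and 8.53% untreated in eggs and 27.7% with puromycin, against 49.1% and 46.8% untreated in oocytes. For DNApol-epsilon it was 2.14 ± 0.29 (SE, adjusted p = 0.00185), from 17.5% with puromycin, against 9.24% and 10.3% untreated in eggs and 29.7% with puromycin, against 47.4% and 50.8% untreated in oocytes. Both rose in eggs and fell in oocytes, with 1 puromycin gradient per stage. The largest differences of the other members were 3.16 for RecQ4 and -2.75 for geminin.

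Follicle cell markers summed to 28780 RPKM in the puromycin egg input, a library outside the comparisons, against 0.5 and 0.848 RPKM in the untreated egg inputs. Germline markers summed to 33.0 RPKM there, against 322.3 and 298.0 RPKM in the untreated egg inputs.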

How the results depend on the processing

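All values here are eggs over oocytes, png eggs over eggs or puromycin over untreated, with limma. Under every alternative run, 26 of the 28 polysomal falls, 19 of the 24 falls in efficiency and 27 of the 31 rises in png eggs kept their call, as did 14 of 37 RNP rises, 11 of 36 puromycin falls in oocytes and 13 of 28 in eggs. Depth is unknown, and gradient tables hold no gene under their heavy-polysome minimum, so losses below it cannot be seen. The cause of the changes below was not tested.

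In polysomes 9 members rose when fractions were rescaled by their totals, 10 with gradients centred, 2 with heavy polysomes alone and 2 with low polysomes included, against 5; leaving out 1 library gave 3 to 5. With heavy polysomes alone Psf2 was at -0.32, RfC38 at -0.66 and geminin at -0.52, and with low polysomes included RfC38 was at -0.13. For RNP shares, rescaling gave 1244 genes called and 19 members higher, centring 1219 genes, 14 members higher and 2 lower, and leaving out 1 library gave 1838 to 4020 genes and 22 to 38 members. For inputs, 108 genes were called with a 5 RPKM minimum, 57 with no filter, 0 with puromycin inputs added (806 at an unadjusted p under 0.05) and 372 after quantile normalization, against 230; leaving out 1 library gave 197 to 1726 genes and 0 to 11 members lower. In puromycin eggs 18 members rose and 13 fell after rescaling, 19 and 13 after centring, 12 and 15 with low polysomes included, and 0 rose with heavy polysomes alone; leaving out 1 library gave 1 to 2 risen. Values of puromycin eggs that turned were, for rescaled, centred and low polysomes included, DNA-ligI 0.79, 1.00 and 0.26, DNApol-alpha60 0.89, 0.98 and 0.28, Top1 1.83, 1.62 and 1.45, Top2 1.97, 1.69 and 1.20, and, for the first pair of settings, Mcm6 0.07 and 0.16 and WRNexo 1.35 and 1.64; with heavy polysomes alone Top1 was called lower at -1.24 and Top2 at -1.22. In puromycin oocytes 3 members rose and 13 fell after rescaling, 2 and 23 after centring, 2 rose with low polysomes included, and 23 fell and 870 genes were called with heavy polysomes alone; leaving out 1 library gave 1617 to 3136 genes. There DNApol-delta was at 0.14 and dup at 0.09 after rescaling, and DNApol-epsilon at 0.13 with low polysomes included. For efficiency, Mcm10 was at -0.04 after quantile normalization, and leaving out 1 library gave 5 to 11 risen members in eggs and 4 to 7 fallen in png eggs. For RNA of png eggs, quantile normalization gave 797 transcripts, 3 members higher and 8 lower, the sample types alone 1755, 6 and 10, and a pseudocount of 0.1 RPKM 0 members lower; leaving out 1 library gave 3 to 1756 transcripts, 0 to 6 members higher and 0 to 10 lower.

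Replicate numbers were not taken to pair the samples, since the labels state no shared source and there are only 2 pairs: the differences between replicates 1 and 2 in eggs and oocytes correlated at -0.03 for polysomal shares, 0.33 for RNP shares and -0.03 for inputs. With a replicate block, 4433 genes were higher and 69 lower in RNP share, against 4037 and 28 without it, 370 genes were called in inputs and 1 member rose in puromycin eggs.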
